A study of Mus musculus with 2 samples.

Results

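Cluster 0 is one of the cell clusters that the study made from interstitial cells of the infarcted mouse ventricle and assigned to macrophages and monocytes, together with clusters 3, 11, 12 and 13. Its cells were compared between a library from PostnMCM control hearts and a library from Yapfl/fl;Wwtr1fl/+;PostnMCM hearts. The genes described here are all 923 rows of the cluster 0 table, out of 6477 distinct genes in 15431 rows over 18 cluster tables. For each gene the table gives the share of cluster 0 cells in which the transcript was detected in either library. A gene is listed only if at least 25% of the cells of one library held it and if it passed a limit on fold change, so a gene that is missing has no value here. A gene under 25% in one library could thus be listed only with a larger share in the other.

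In PostnMCM mice the Postn gene, which activated fibroblasts of the injured heart switch on, drives a Cre recombinase that works only under tamoxifen. The other line carried, besides PostnMCM, loxP sites around both alleles of Yap1 and around 1 allele of Wwtr1, which encodes TAZ. Both strains also carried the R26-eGFP reporter. The mice were 8 to 10 weeks old, underwent myocardial infarction and received chow with 0.4 g/kg tamoxifen citrate. Ventricles were collected 6 days after infarction per the labels and at day 7 per the methods, and viable (DAPI-) cells were sorted. Each group was 1 library (10x Chromium, 3′ chemistry), and the number of animals behind each is not given in the sources used here. There was therefore no replicate, no test and no error for any difference, and every statement describes these 2 libraries. Neither the number of cells in the cluster nor the depth per cell is given in the files, so the counting error of a share is unknown.

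Macrophages of the healthy heart are largely resident cells of embryonic origin, marked by the hyaluronan receptor Lyve1, the folate receptor Folr2 and the mannose receptor Mrc1. After infarction blood monocytes enter the muscle, clear dead myocytes and turn into macrophages that take up lipid and release repair factors such as osteopontin (Spp1). Macrophages also respond strongly to interferon, through transcription factors such as Irf9 and Irf7. Cre in these mice is driven by a fibroblast gene, so the macrophages are not the cells that the design targets.

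Macrophage and monocyte markers were detected in most cells of the cluster as far as they were listed. Of 20 such markers 13 were listed. Lyz2 and Fcer1g were detected in 100% of cells in both libraries, Tyrobp in 100% of control cells and 99.7% of cells labelled depleted, and Trem2 in 98.5% and 92.2%. C1qa, C1qb, C1qc, Csf1r, Apoe, Ctss and Fcgr1 were not listed and have no value. Of other lineages the table listed the neutrophil genes S100a8 (68.3% of control cells) and S100a9 (54.8%), the cardiomyocyte gene Ttn (25.7%), the erythroid gene Hbb-bs (25.8%) and, of 11 dendritic cell markers, Bst2. No marker of T and natural killer cells, B cells, fibroblasts or endothelial and mural cells was listed, which says nothing about their presence, since a gene with alike values in both libraries is left out of the table. Yap1, Wwtr1 and Postn were not listed in cluster 0, so the label could not be checked in these cells. In the 4 fibroblast subclusters, whose tables have no limits, Yap1 was detected in 46.2%, 23.3%, 57.5% and 30.4% of control cells and in 56.2%, 43.5%, 40% and 47.6% of cells labelled depleted (subclusters 0, 3, 4 and 5). Wwtr1 went from 81.4%, 93.3%, 80% and 100% to 90.6%, 91.3%, 60% and 85.7%. The Yap1 share was higher in 3 of the 4 subclusters of the second library, which is therefore named by its label, as the library labelled depleted. Ccn3, a matricellular protein gene that the study followed up from these libraries, was lower there in all 4, with 83.4%, 80%, 27.5% and 60.9% of control cells and 37.5%, 21.7%, 0.0% and 19% of cells labelled depleted. The shares of cells labelled depleted in subcluster 4 took only 11 distinct values over 15059 genes, so they are coarse. A transcript that lacks a floxed exon can still be counted at its 3′ end.

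The shares of cluster 0 cells were more often higher than lower in the library labelled depleted. Of the 923 genes, 564 had a higher share, 318 a lower share and 41 the same share. Counting only differences of at least 10 percentage points, 442 genes (47.9% of those listed) were higher and 184 (19.9%) were lower, and 297 lay within 10 points. The median difference was 9.3 points, with quartiles of -4.9 and 17.35 points. The higher genes had a median share of 40.4% in the control library and 60.3% in the library labelled depleted, and the lower genes had 68.2% and 51.1%. At 20 points 131 genes were higher and 53 lower. Of the genes past 10 points 70.6% were higher, and this split turned to 34.9% when the differences were centred on the median of the listed genes. The balance of directions therefore rests on the scale, and values of single genes are given below as measured. Just inside the limit of 10 points lay Samhd1 (10.0) and Bin2 and Rbx1 (-10.0), and just outside it C4b and Cd163, among others (9.9 each). A share cannot show a difference where nearly every cell holds the transcript, and 120 genes were at 95% or more in both libraries, 37 of them at 100% in both.

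**Figure D1:**
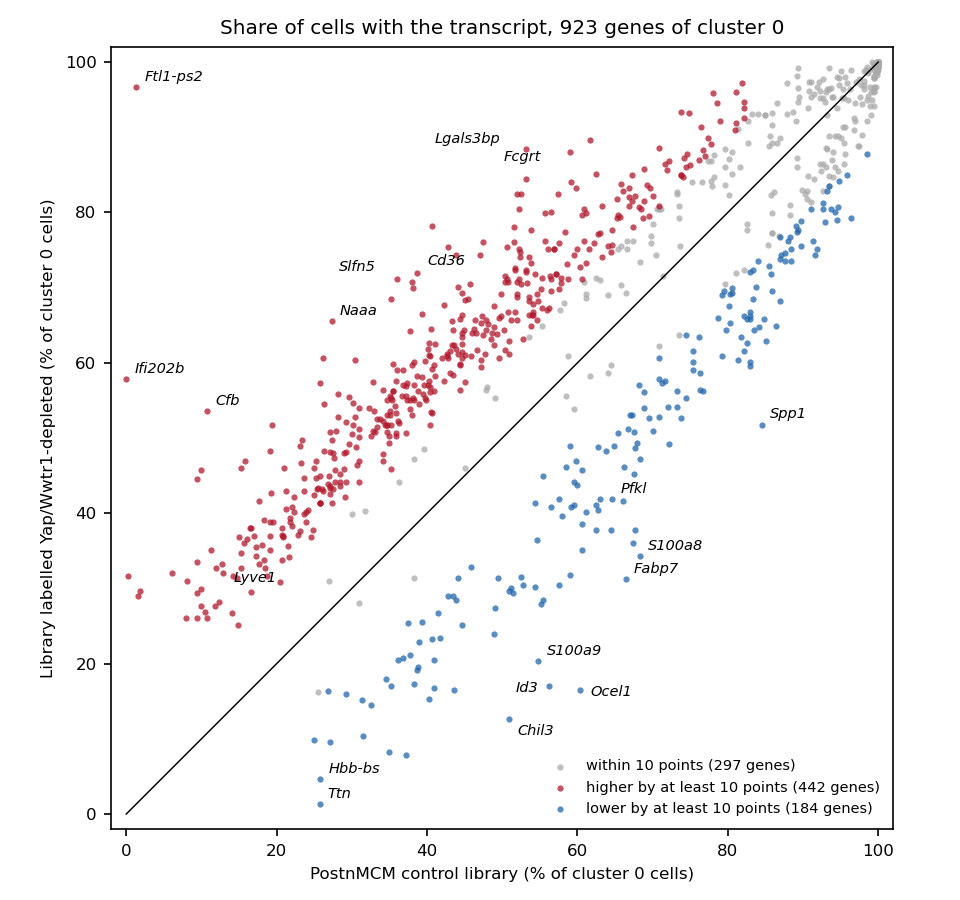
Share of cluster 0 cells with each transcript in the control library (x axis, %) against the library labelled depleted (y axis, %), 1 point per gene for 923 genes, with the line of equal shares. The 442 genes at least 10 points higher lie above the line and the 184 lower ones below it, and few genes with middle shares lie on the line because of the limits of the table.

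Interferon-stimulated genes had higher shares in the library labelled depleted. Of 70 genes in the list 32 were listed in cluster 0, 29 were at least 10 points higher, against 47.9% of all listed genes, 0 were at least 10 points lower, against 19.9%, and 3 lay within 10 points. Their median difference was 19.95 points, against 9.3 points over all listed genes, and it was 10.65 points after centring. Lgals3bp, a secreted glycoprotein that binds galectin 3, was detected in 53.2% of control cells and 88.4% of cells labelled depleted. Slfn5, of the Schlafen family, was detected in 36% and 71.1%, and Rtp4, a chaperone of membrane receptors, in 19.4% and 51.8%. Irf7, a transcription factor that amplifies the type I interferon response, was detected in 25.8% and 57.3%. Bst2, which tethers budding viruses to the cell membrane, was detected in 53.2% and 84.5%. Irf9, a transcription factor that acts downstream of the interferon receptors, was detected in 27.9% and 51%, and its values were chosen for display after they were seen. The 3 listed genes within 10 points were Slfn2 (82.7% and 92.2%), Ly6e (93.5% and 99.2%) and Ifitm3 (99.4% and 99.8%), and the last 2 of these had little room to be higher. Ifi27, an interferon-inducible gene that the list does not hold, was lower, with 55.4% and 28.4%. The list leaned to higher shares in fibroblasts too. Of its 67 genes in each fibroblast subcluster 50, 44, 49 and 56 were higher and 14, 18, 7 and 6 lower (subclusters 0, 3, 4 and 5). Their median share went from 44.1%, 36.7%, 35% and 21.7% of control cells to 53.1%, 47.8%, 50% and 38.1%. The direction was thus not particular to cluster 0.

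Promoters of the interferon genes were read for the interferon-stimulated response element, since these members had the same direction. The motif searched was GAAA, then any 2 bases, then GAAA, on either strand, overlapping matches included, in the 300 bases from 250 before to 50 after the start site (RefSeq, GRCm38.p6). Of the 29 higher interferon-stimulated genes 23 had a promoter in that table, and 11 of these (47.8%) held the motif. It was in 4% of all 27025 genes with a promoter, in 6.4% of the lower genes of cluster 0, and in 6.2% of the higher genes outside the interferon and IFI200 lists. The list was built from genes known to respond to interferon, so the share describes the list and not the libraries. The 4 interferon-stimulated genes of the largest difference with a match before the start site were Slfn5, Bst2, Irgm1 and Phf11b. They are shown with up to 70 bases around 1 match each, 5′ to 3′ on the gene's strand, ending no later than the start site, and with the match in capitals. Isg15, which encodes a ubiquitin-like modifier, is added after its sequence was seen, because 3 overlapping matches lie in it.
Slfn5 (chr11:82951917-82951986, + strand): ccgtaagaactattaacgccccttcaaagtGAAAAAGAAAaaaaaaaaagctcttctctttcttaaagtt
Bst2 (chr8:71537557-71537626, - strand): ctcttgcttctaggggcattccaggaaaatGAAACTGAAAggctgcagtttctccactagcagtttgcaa
Irgm1 (chr11:48871421-48871480, - strand): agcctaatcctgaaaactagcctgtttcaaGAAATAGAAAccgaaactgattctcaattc
Phf11b (chr14:59341341-59341410, - strand): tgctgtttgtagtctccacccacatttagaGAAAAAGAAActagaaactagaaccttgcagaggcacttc
Isg15 (chr4:156200845-156200914, - strand): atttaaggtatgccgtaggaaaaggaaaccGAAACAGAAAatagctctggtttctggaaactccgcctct
Irgm1, which encodes an interferon-inducible GTPase, was detected in 15% of control cells and 36.8% of cells labelled depleted. Phf11b was detected in 32.3% and 54%, and Isg15 in 10.8% and 26.1%. A match is a run of letters and does not show that a factor binds there.

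The IFI200 family, a cluster of genes on chromosome 1 whose proteins bind DNA, had 4 of 16 members listed. All 4 were higher by at least 10 points, against 47.9% of all listed genes. Ifi202b (chr1:173790134-173810414, GRCm39) was detected in 0.0% of control cells and 57.8% of cells labelled depleted. This gene is known to differ in expression between inbred mouse strains. Mndal was detected in 52.5% and 82.5%, Ifi203 in 44.1% and 70.1%, and Ifi207 in 68.5% and 80.5%. Ifi202b was listed in 5 other tables, and was at 0.0% in the control library in macrophage clusters 3, 11, 12 and 13, where the library labelled depleted had 65.1%, 27.1%, 27.8% and 80.3%. It was also at 0.0% of control cells in each fibroblast subcluster, against 57.1% to 82.6% of cells labelled depleted. The difference of Ifi202b was thus present in every cell population that gave a value for it, fibroblasts included. The strain background of the lines was not analysed here.

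Genes of antigen presentation by MHC class I were higher about as often as listed genes at large. Of 29 genes 6 were listed, 3 of them at least 10 points higher, against 47.9% of all listed genes, and 0 lower. H2-T24, a nonclassical class I gene, was detected in 9.9% of control cells and 45.7% of cells labelled depleted. Tapbp (tapasin), which loads peptides onto class I molecules, was detected in 61.7% and 89.6%, and Tap1, which carries peptides into the endoplasmic reticulum, in 26.3% and 48.3%. B2m and H2-K1 were detected in 100% of cells in both libraries and could not show a difference in share. The list had a median of 13.15 points, and of 3.85 points after centring. Without genes at 95% or more in both libraries the median was 24.95 points. Class II presentation had only 2 of 16 genes listed, H2-Aa with 38.3% and 31.4% and the costimulatory receptor Cd40 with 26.8% and 43.9%.

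Genes of resident cardiac macrophages moved much as listed genes at large did. Of 26 genes 12 were listed, with 7 higher by at least 10 points, against 47.9% of all listed genes, and 0 lower. Their median of 10.5 points was close to the 9.3 points of all listed genes, and 1.2 points after centring. Fcgrt, the neonatal Fc receptor, was detected in 59% of control cells and 88% of cells labelled depleted. Lyve1 was detected in 12.9% and 32%, Selenop, the selenium carrier protein, in 81.1% and 96%, and Mrc1 in 67.2% and 81.5%. Pf4, a chemokine in the same list, went the other way with 88.2% and 79.7%, a difference within 10 points. In fibroblasts, which should lack it, Lyve1 was at 0.0% to 6.2% of control cells and 0.0% to 14.3% of cells labelled depleted, in each library under its share in cluster 0. For Mrc1 the fibroblast shares were 12.5% to 15.9% and 12.5% to 20%. Other genes of the list were frequent in fibroblasts, with Fcgrt at 66.7% to 92.5% of control cells and Selenop at 87% to 90%, both above their control shares in cluster 0. These subcluster tables were normalized separately. In the table of all fibroblasts (cluster 5), normalized together with cluster 0, Selenop was detected in 58.7% and 73.3%. Its control share there lay under the 81.1% of cluster 0, so the order was not the same as in the subclusters. Its difference was 14.6 points, against 14.9 points in cluster 0.

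Macrophage and monocyte markers did not share 1 direction. The 13 listed markers, Mrc1 among them, had a median of 0.3 points. It was -9 points after centring and 7.2 points without genes at 95% or more in both libraries. Of the 13 markers 4 were at least 10 points higher, against 47.9% of all listed genes, and 0 were lower, against 19.9%. Mertk, a receptor through which macrophages bind dying cells, was detected in 60.9% and 76.2%, and Adgre1, the F4/80 antigen, in 77.4% and 89.9%. Cd68, a lysosomal membrane protein, was at 93.1% and 88.6%, and Cd14, the coreceptor for lipopolysaccharide, at 89.2% and 87.3%. Axl, which belongs to the receptor family of Mertk, was detected in 11.3% and 35.1%, but fibroblasts held it in 83.3% to 100% of control cells.

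Monocyte genes were divided. Of 24 genes 11 were listed, 3 lower by at least 10 points, against 19.9% of all listed genes, 1 higher, against 47.9%, and 7 within, with a median of -0.3 points. Chil3, a chitinase-like secreted protein of monocytes, was detected in 50.9% of control cells and 12.7% of cells labelled depleted. Itgal, the integrin chain of LFA-1, was detected in 57.5% and 30.4%, and Vcan, the proteoglycan versican, in 38.3% and 17.3%. Ms4a4c was higher, with 15.2% and 32.7%, and Ccr2, the receptor that draws monocytes from the blood, was at 58.8% and 60.9%. The monocyte receptor itself was thus among the 7 within 10 points.

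S100a8 and S100a9, which form the alarmin calprotectin and are most abundant in neutrophils, were lower. S100a8 was detected in 68.3% of control cells and 34.3% of cells labelled depleted, and S100a9 in 54.8% and 20.3%. They were the 2 listed genes of 13 neutrophil markers. Of 17 S100 and annexin genes 10 were listed, 5 lower by at least 10 points, against 19.9% of all listed genes, and 0 higher, with a median of -8.25 points, among them S100a1 (82.2% and 66.2%) and Anxa1 (80.5% and 69.3%). Of other lineages Ttn and Hbb-bs were lower as well, while the dendritic cell marker Bst2 was higher. Ttn, the giant sarcomere protein of cardiomyocytes, was detected in 25.7% of control cells and 1.3% of cells labelled depleted, and the haemoglobin chain Hbb-bs in 25.8% and 4.6%. Each was the listed marker of its lineage, out of 10 cardiomyocyte and 6 erythroid markers.

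S100a8, S100a9, Hbb-bs and the monocyte gene Chil3 were also detected in many fibroblasts of the control library, and Ttn in few. In the table of all fibroblasts (cluster 5), normalized together with cluster 0, S100a8 was detected in 32.6% of control cells and 5.9% of cells labelled depleted, S100a9 in 49.7% and 9.1%, and Chil3 in 29.9% and 0.5%. These 3 control shares lay under the 68.3%, 54.8% and 50.9% of control cells of cluster 0. Fibroblast subclusters, whose tables were normalized separately, had larger shares. S100a9 was at 85% to 96.7% of control fibroblasts and 38.1% to 60% of fibroblasts labelled depleted over the 4 subclusters. Hbb-bs was at 30.4% to 45% and 0.0% to 4.3%, and Chil3 at 43.5% to 80% and 0.0% to 9.4%. Ttn was at 3.3% to 10% of control fibroblasts, under the 25.7% of control cells of cluster 0, and at 0.0% to 4.8% of fibroblasts labelled depleted. The macrophage marker Tyrobp was at 65.2% to 90% and 26.1% to 52.4%. Over all 20 macrophage and monocyte markers the median share in fibroblast subcluster 0 was 58% in the control library and 37.5% in the library labelled depleted, with 16 markers lower and 3 higher. In subclusters 3, 4 and 5 the medians were 43.4% and 39.1%, 48.8% and 30%, and 30.4% and 28.5%. For S100a8 (78.3% to 91% of control fibroblasts), S100a9 and Hbb-bs the control share of cluster 0 lay under that of every fibroblast subcluster, and for Chil3 under that of all but subcluster 5. For S100a8, S100a9 and Chil3 the order of cluster 0 and fibroblasts was thus not the same in the cluster 5 table as in these subcluster tables. What part such transcripts from other cells have in the lower shares was not tested.

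Genes of lipid-associated macrophages had members in both directions. Of 22 genes 14 were listed, with 4 lower by at least 10 points, against 19.9% of all listed genes, 2 higher, against 47.9%, and 8 within, and a median of -4.5 points. Fabp7, a fatty acid binding protein, was detected in 66.4% of control cells and 31.2% of cells labelled depleted and was listed in no other table. In fibroblasts it was at 4.3% to 22.5% and 0.0% to 10%. Spp1 was detected in 84.5% and 51.8%, while in fibroblasts it was at 60% to 66.9% and 9.5% to 43.5%. Fabp5 was detected in 56.5% and 40.8%, and Syngr1 in 42.8% and 29%. Against these stood Cd36, a scavenger receptor for fatty acids and oxidised lipoproteins, with 38.6% and 71.9%, and Lpl, lipoprotein lipase, with 15.3% and 46%. Trem2, the lipid receptor that marks such cells, was at 98.5% and 92.2%, and Gpnmb was not listed.

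Cholesterol and lipid handling leaned to higher shares. Of 38 genes 9 were listed, 7 at least 10 points higher, against 47.9% of all listed genes, and 1 lower, with a median of 14.1 points (4.8 points after centring). Besides Cd36 and Lpl, the phospholipid transfer protein Pltp was detected in 78% of control cells and 95.9% of cells labelled depleted. Cd5l, a scavenger protein that macrophages make in response to cholesterol-sensing receptors, was detected in 11.8% and 27.7%. The 1 lower gene was Fabp5. Complement genes had 5 of 22 members listed, and Cfb (chr17:35074852-35081559, GRCm39), factor B of the alternative pathway, was the 1 past 10 points. Cfb was detected in 10.8% of control cells and 53.6% of cells labelled depleted, and in cluster 3 in 24.8% and 53.9%. Complement genes had a median of 4.0 points, which turned to -5.3 points after centring. All 5 listed were higher, from a median control share of 92.2%. Without genes at 95% or more in both libraries the median was 6.95 points.

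Glycolysis and hypoxia response genes mostly had lower shares. Of 29 genes 14 were listed, 8 lower by at least 10 points, against 19.9% of all listed genes, 0 higher and 6 within, with a median of -10.5 points. Pfkl, the liver-type phosphofructokinase that controls glycolytic flux, was detected in 64.6% of control cells and 41.9% of cells labelled depleted. The glucose transporter Slc2a1 was detected in 35.2% and 17%, the lactate transporter Slc16a3 in 67.2% and 53%, and the enzyme Tpi1 in 94.2% and 80%. Slc2a1 went the other way in cluster 13, with 21.1% of control cells and 53.5% of cells labelled depleted. Slc16a3 was at least 10 points higher in 2 of the 3 other tables that list it and at least 10 points lower in 1. Fibroblast shares of Pfkl were 21.7% to 80% in the control library and 43.8% to 52.4% in the other.

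Genes of mitochondrial respiration were lower without an exception among those listed. All 20 listed genes, of 99 with such names in the series, had a lower share, 9 of them by at least 10 points, against 19.9% of all listed genes, with a median of -8.65 points. Ndufs5, a subunit of complex I, was detected in 67.4% of control cells and 36.1% of cells labelled depleted, and Ndufa12, of the same complex, in 72.1% and 54.1%. The mitochondrial ribosome, a list added after the values were seen, had 9 of 78 genes listed, 8 of them lower by at least 10 points and 0 higher. Gadd45gip1, which also belongs to the mitochondrial ribosome, was detected in 43.6% and 16.5%. Of 86 genes of cytosolic ribosomal proteins 55 were listed, and 52 of them were at 95% or more in both libraries. Rps6 was the 1 gene past 10 points, with 82.6% and 62.7%, and its processed copy Rps6-ps4 had 49.4% and 31.4%. Reads of such copies can be split by the counting, so both values are uncertain.

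Inhibitors of differentiation were among the lowest genes. Id3, which blocks DNA binding of basic helix-loop-helix factors and responds to BMP and TGF-β signals, was detected in 56.2% of control cells and 17% of cells labelled depleted. A list of 15 BMP and TGF-β response genes was added after this value was seen. Of these 5 were listed and 4 were lower by at least 10 points, against 19.9% of all listed genes, Id1 with 34.9% and 8.3%, Id2 with 66.1% and 41.6%, Smad7, an inhibitor of the same receptors, with 38.6% and 19.1%, and Id3. The other listed gene, Ski, was at 66.6% and 76.2%. In fibroblasts Id1 was lower in 3 of the 4 subclusters, for example with 66.2% and 40.6% in subcluster 0, and higher in subcluster 5 with 39.1% and 47.6%. There Id3 was at 94.5% to 100% of control cells and 93.8% to 100% of cells labelled depleted. Smad7 was higher in all 4 fibroblast subclusters, for example with 36.6% and 46.9% in subcluster 0. Amino acid exchange was a second list of this kind. Slc7a7 (59% and 31.8%), Slc7a8 (82.9% and 59.6%) and their shared heavy chain Slc3a2 (86.4% and 64.9%) were lower, as was Gclm (51.2% and 30%), a subunit of the enzyme that starts glutathione synthesis. These were the 4 listed genes out of 11 in that list, and since both lists were built after values were seen, their counts are a description only.

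Some of the largest differences belonged to no list. Naaa (chr5:92405517-92426085, GRCm39), a lysosomal enzyme that breaks down fatty acid ethanolamides, was detected in 27.3% of control cells and 65.5% of cells labelled depleted. In cluster 3 its shares were 61% and 75.1%, so it was frequent in the control library of another macrophage cluster. Gvin3, annotated as a transcribed pseudogene of the family of very large interferon-inducible GTPases, was detected in 38% and 70.8%, and the predicted gene Gm36161 in 40.7% and 78.2%. On the lower side Txnl4a, a protein of the spliceosome, gave 55.1% and 27.9%, and Gm31734 37.2% and 7.8%.

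**Figure D2:**
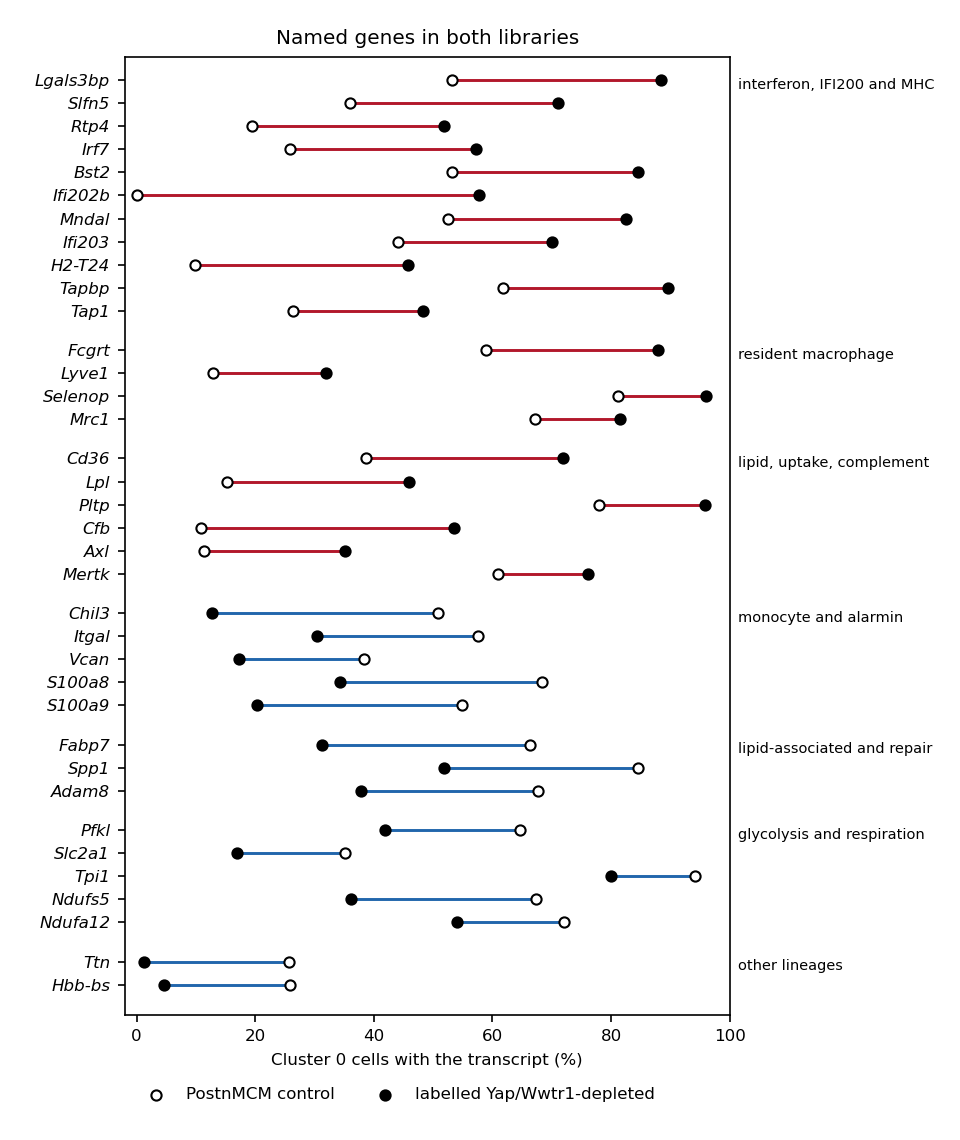
Share of cluster 0 cells (x axis, %) with each named transcript in the control library (open circle) and the library labelled depleted (filled circle), joined by a red line where the second is higher and a blue line where it is lower. Ifi202b spans 0.0% to 57.8%, and Ttn and Hbb-bs lie under 5% in the library labelled depleted.

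The remaining lists had no single direction or few genes past 10 points, the limit that 47.9% of all listed genes passed upwards and 19.9% downwards. Of 57 lysosome and cathepsin genes 17 were listed, 9 of them at 95% or more in both libraries and 3 at least 10 points higher, such as Scarb2 with 55.7% and 79.9%. Phagocytic and Fc receptors had 21 of 43 genes listed, 7 higher and 3 lower, with a median of 2.7 points that turned to -6.6 points after centring. That median was 5.7 points without genes at 95% or more in both libraries. Clec4a1 was detected in 51.5% and 78.1% and the related lectin Clec4a2 in 83% and 65.8%. Matrix, growth factor and repair genes had 15 of 46 listed, 4 lower and 1 higher, with the protease Adam8 at 67.7% and 37.8% and Mmp14 at 18.1% and 35.8%. Of 36 immediate early genes 8 were listed, 2 higher and 3 lower, among them Fos with 75.4% and 60.1%. Heat shock genes gave 1 higher and 2 lower of 8 listed. Inflammatory cytokine and NF-κB feedback genes gave 2 higher and 2 lower of 5, and their median of 8.9 points turned to -0.4 points after centring. Chemokines gave 0 higher and 1 lower of 4 listed, and actin genes 0 in either direction of 9. Iron and haem genes gave 1 higher and 2 lower of 8. Of 48 cell cycle genes 2 were listed, both within 10 points, and of 30 YAP/TAZ pathway genes and targets only Axl was.

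**Figure D3:**
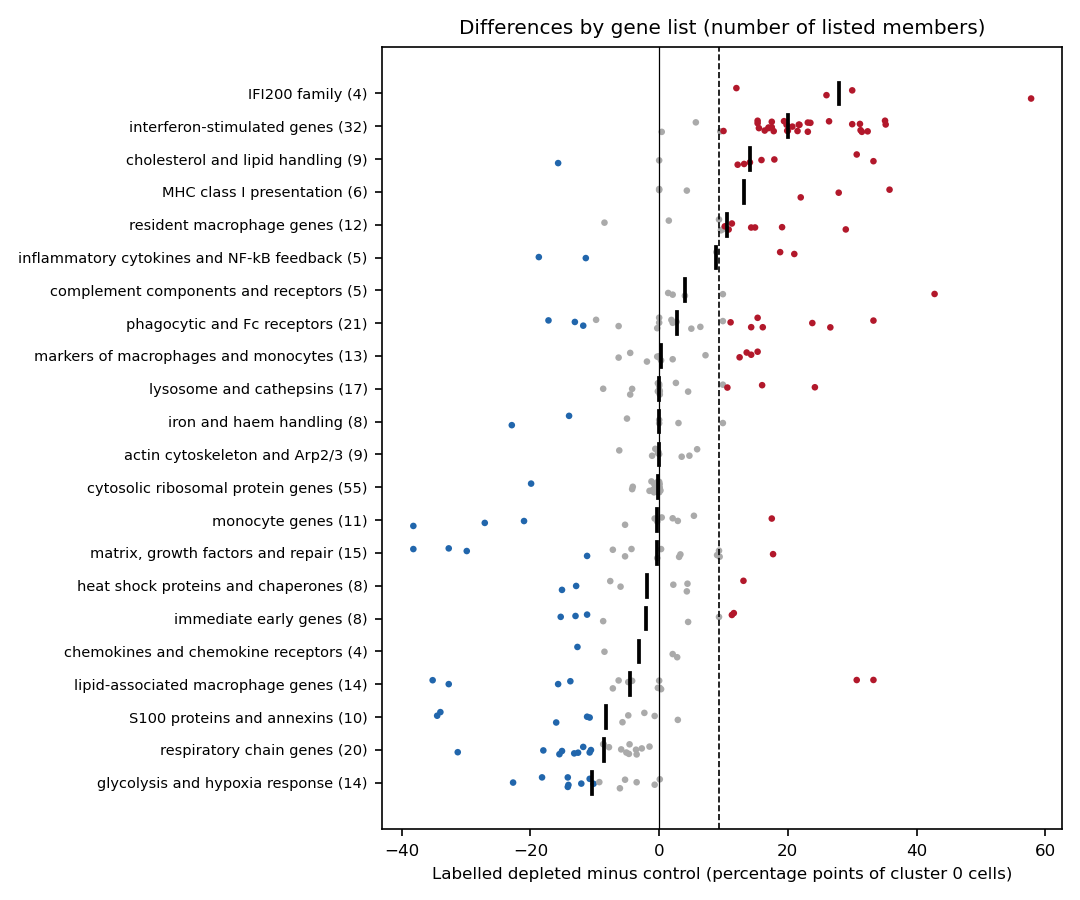
Difference of share between the libraries (x axis, percentage points) for the listed members of each gene list, 1 point per gene, with the list's median as a black bar and the median of all 923 genes as a dashed line. Interferon-stimulated genes lie at 0.4 to 35.2 points and glycolysis genes at -22.7 to 0.1 points. Ftl1-ps2 (95.4 points, iron list) lies outside the axis.

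Ftl1-ps2 had the largest difference of the table. This processed pseudogene of the ferritin light chain (chr10:130428026-130428574, GRCm39) was detected in 1.3% of control cells and 96.7% of cells labelled depleted, whereas Ftl1 itself (chr7:45107367-45109308) was detected in 100% of cells in both. It was listed in all 17 other cluster tables and was higher in each, by 25.3 to 100 points, from 0.0% to 5.2% of control cells. A read can be given to either copy only by the few bases in which they differ. The 549 coding bases of Ftl1 and the 549 bases of Ftl1-ps2 aligned without a gap and differed at 12 positions (97.8% identity). Of the stretches of 120 bases with the most differences, the first is shown for both on the coding strand, with the differing bases in capitals.
Ftl1 (chr7:45108531-45108650, - strand): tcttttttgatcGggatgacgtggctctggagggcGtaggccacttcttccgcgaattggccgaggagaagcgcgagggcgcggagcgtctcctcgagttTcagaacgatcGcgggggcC
Ftl1-ps2 (chr10:130428349-130428468, - strand): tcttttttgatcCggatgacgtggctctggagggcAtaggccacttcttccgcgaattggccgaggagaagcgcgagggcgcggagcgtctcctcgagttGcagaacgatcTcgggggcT
Counted from 1 at the start codon, the 5 substitutions of the stretch shown are G119C, G142A, T207G, G218T and C226T. Another stretch of 120 bases holds as many, which are A401T, T402C, G468A, C482T and G504A. The value of Ftl1-ps2 is uncertain because the copies differ at so few bases. Rpl34-ps1 (9.4% and 44.6%) and Rpl27a-ps4 (29.6% and 55.4%), annotated as processed pseudogenes of ribosomal protein genes, were higher in all 15 and 16 other tables that list them, and their sequences were not compared with those of their parent genes.

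The next question was which of these genes were listed in cluster 0 alone. Of the 923 genes 104 (11.3%) were in no other cluster table, 457 in 1 to 3 others, 303 in 4 to 8 and 59 in 9 to 17. Among the 104 genes 74 (71.2%) were at least 10 points higher and 17 (16.3%) lower, with a median of 16.3 points. The 819 shared genes had 368 (44.9%) higher and 167 (20.4%) lower, with a median of 7.4 points. Nearly all of the 120 genes at 95% or more in both libraries, which could not differ by 10 points, were shared. They were 36 of the 457 genes, 62 of the 303 and 21 of the 59. The contrast between genes listed alone and shared genes was not adjusted for this, so it does not show a lean particular to cluster 0. Being listed alone says that a gene did not pass the limits elsewhere, and whether its difference was larger in cluster 0 than in other clusters was not tested.

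The genes listed alone with the largest higher shares were Sgpp1, a phosphatase of sphingosine 1-phosphate, with 35.2% of control cells and 68.5% of cells labelled depleted, and Frmd4b with 42.8% and 75.4%. Cmklr1, the chemerin receptor of macrophages, was detected in 43.8% and 74.3%, while its fibroblast shares were 0.0% to 39.1% and 0.0% to 9.5%. Abca9, a transporter of the ABC family, gave 47.5% and 76.1%, and the cytokine receptor Lifr 28.1% and 52.8%. Epb41l1 was at 30.2% and 54.6%, Engase at 9.4% and 33.5%, Rab11fip5 at 52.2% and 75.2%, Fgfr1 at 8.1% and 31%, and Cln6 at 27.1% and 48.2%. Frmd4b was more frequent in control fibroblasts of subclusters 0, 3 and 4 (82.5% to 95.9%) than in cluster 0 and still not listed elsewhere, so listing alone is not a measure of where a gene is expressed. Of the resident macrophage genes 3 were listed alone, which were Lyve1, Cd163 (30% and 39.9%) and Fcna (55.3% and 64.9%). Of the interferon-stimulated genes 2 were, Xaf1 (19.5% and 38.9%) and Eif2ak2 (28.9% and 45.9%).

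On the lower side Fabp7 had the largest difference among genes listed alone, followed by Tcf7l2, a transcription factor of the Wnt pathway, with 62.5% and 37.8%, and Ttn. Pdpn, the membrane protein podoplanin, was detected in 27.1% and 9.6%, the kinase Dmpk in 32.5% and 14.5%, and Mcemp1 in 43.8% and 28.4%. Lrpap1, a chaperone of lipoprotein receptors, gave 79.2% and 60.9%, Gadd45g 31.3% and 15.2%, Lamtor5 80.3% and 65.3%, and Ptpmt1 65.4% and 50.7%. Pdpn was at 82.6% to 100% of control fibroblasts and 66.7% to 100% of fibroblasts labelled depleted.

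At the other end, 25 genes were listed in 12 or more other tables, 10 of them at least 10 points higher in cluster 0, 3 lower and 10 at 95% or more in both libraries. All tables share the 2 libraries, so a gene that recurs across them was not observed independently. The 10 higher genes were Ftl1-ps2, Rpl34-ps1, Rpl27a-ps4, Gm7429, Gm15682, Apobec3, St3gal4, Polr2k, Bst2 and Ifi27l2a. The first 5 of these are annotated as processed pseudogenes, copies whose reads the counting can assign to another gene, so their values are uncertain. Gm7429 was detected in 1.8% of control cells and 29.7% of cells labelled depleted, and Gm15682 in 35.5% and 59.9%. Apobec3, a restriction factor of retroviruses, gave 18.3% and 39.1% and was higher by 18.1 to 66.2 points in all 13 other tables. The 3 lower genes were Chil3, S100a9 and Gm12191, a transcribed processed pseudogene with the same uncertainty (48.9% and 23.9%, and lower in all 13 others). Ocel1, listed in 10 other tables, had the lowest difference of cluster 0, with 60.4% and 16.5%, and it was lower by 20.2 to 44.3 points in those 10. In fibroblasts Ocel1 was at 52.2% to 77.2% of control cells and 9.5% to 26.1% of cells labelled depleted.

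Within the macrophage and monocyte clusters 546 of the 923 genes were in at least 1 of the tables of clusters 3, 11, 12 and 13, and 38 were in all 4. Cluster 0 shared 240 genes with cluster 3, which is 26% of its own list and 66.9% of that of cluster 3. It shared 294 with cluster 13 (31.9% and 32.9%), 236 with cluster 12 (25.6% and 36.3%) and 219 with cluster 11 (23.7% and 30%). Bst2 was in all 4 tables, with 60.3% and 89.2% in cluster 3, 50% and 81.2% in cluster 11, 25% and 44.3% in cluster 12, and 55.8% and 83.1% in cluster 13. Rtp4 was in the tables of clusters 3 (37.9% and 65.1%) and 13 (42.1% and 76.1%). Id3 was lower in clusters 11 (27.1% and 10.4%), 12 (43.8% and 30.4%) and 13 (26.3% and 14.1%). Chil3 was at 97.9% and 91.5% in cluster 13, where it was nearly saturated, and at 47.9% and 6.2% in cluster 11. Mrc1 was at 40.3% and 29.2% in cluster 11, opposite to cluster 0, and Selenop at 54.2% and 35.4%. Fcgrt was higher in cluster 11 (44.4% and 58.3%), as it was in clusters 3 (40.4% and 53.9%) and 12 (30.2% and 36.7%). Resident genes thus did not have 1 direction over the macrophage clusters, and a difference between clusters was not tested.

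**Figure D4:**
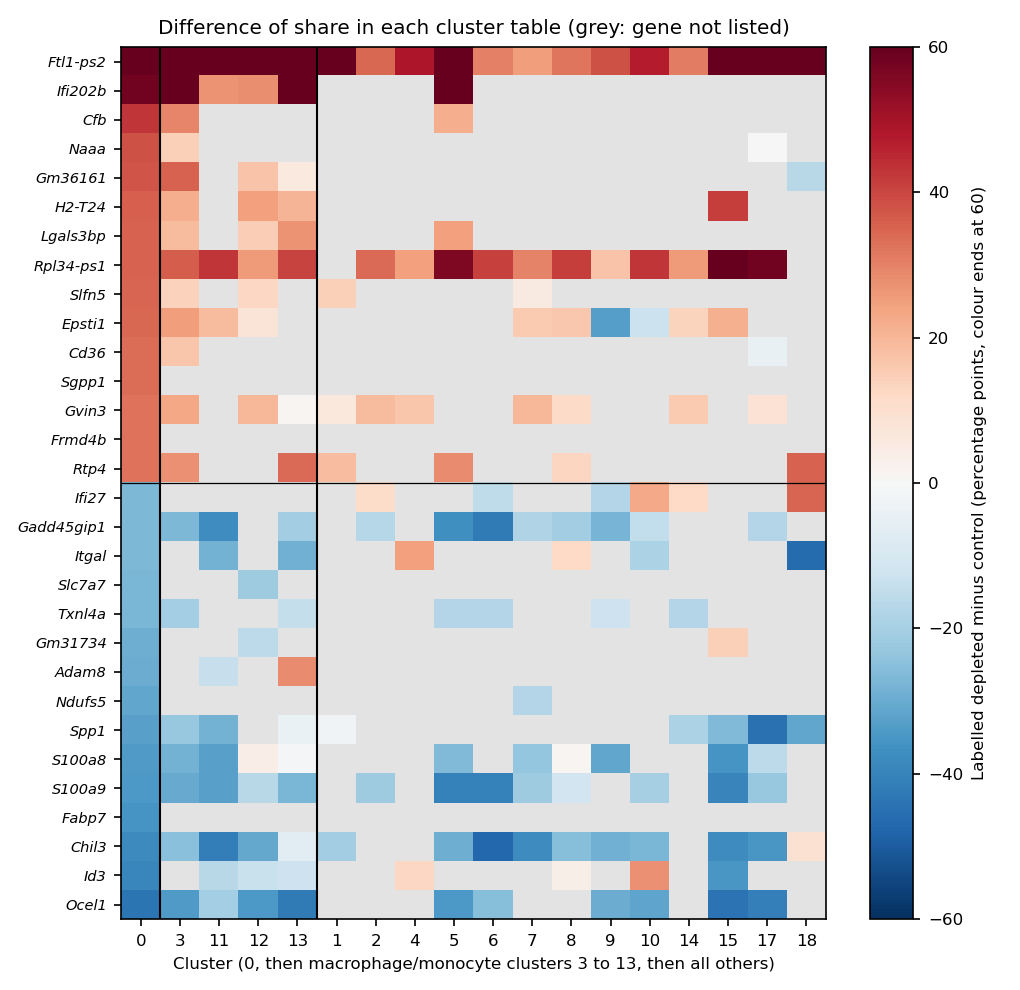
Difference of share in each cluster table (columns, cluster 0 first, then clusters 3, 11, 12 and 13, then the others) for the 15 genes with the largest higher and the 15 with the largest lower difference in cluster 0, coloured from -60 to 60 percentage points, with grey where the gene is not listed. Ftl1-ps2 is higher in all 18 tables, while Sgpp1, Frmd4b and Fabp7 are listed in cluster 0 alone.

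The direction varied between clusters. The median differences of the other clusters ran from -13.6 to 12.15 points, and 16 of the 17 lay under the 9.3 points of cluster 0. Cluster 4 leaned to higher shares more than cluster 0 did, with a median of 12.15 points, 55.6% of its listed genes at least 10 points higher and 12.7% lower. Clusters 3, 8 and 13 also had positive medians, of 3.7, 7 and 4.6 points, and more higher than lower genes, as did clusters 1 and 10 with 1 and 1.8 points. Over the other clusters between 18.1% and 55.6% of listed genes were at least 10 points higher.

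Transcript length separated higher from lower genes in cluster 0, a property looked at after the values were seen. The longest annotated transcript (GENCODE, GRCm39) was known for 891 of the 923 genes (96.5%). Its median was 5038 bases for the higher genes, 2521 bases for the lower ones and 3825 bases for all listed genes. In the quintile of genes with the shortest transcripts (348 to 1993 bases) 15.6% were higher and 39.7% lower, and in the quintile with the longest (6168 to 107543 bases) 75.3% were higher and 7.3% lower. The shorter genes also had larger shares in the control library, with a median of 82.6% in the shortest quintile and 50% in the longest. The contrast by length was not the same at each control share. Among genes with a control share under 40%, 83% of those under the median length and 90.8% of those above it were higher, and their median differences of 18.05 and 17.7 points were close. From 40% up to 70% it was 41% and 79.4% higher and 46.7% and 11.9% lower, with medians of -2.9 and 15.05 points. At 70% or more 4.0% and 17.1% were higher and 27.4% and 12.6% lower. Higher genes had the longer median transcript in 13 of the 17 other clusters too. What part length has in the differences was not tested. The interferon-stimulated genes were higher at either length, with 12 of 15 higher in the 2 shortest quintiles, against 84 of 357 over all listed genes there. In the 3 longest quintiles it was 17 of 17, against 343 of 534. Of the 14 glycolysis genes 3 of the 6 in the 2 shortest quintiles were lower, against 114 of 357 over all listed genes there, and 5 of the 8 in the others, against 63 of 534. Of the respiratory chain genes with a known length 4 of 9 were lower in the 2 shortest quintiles and 3 of 5 in the others. Other lists differed by length. S100 and annexin genes were lower in 5 of 7 cases in the 2 shortest quintiles and in 0 of 3 in the others, and MHC class I genes were higher in 0 of 2 and 3 of 4.

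**Figure D5:**
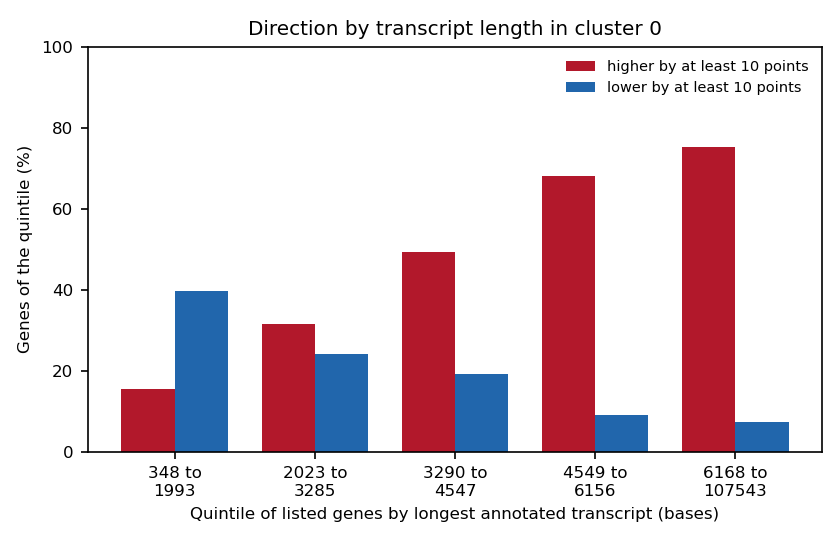
Percent of genes at least 10 points higher (red) or lower (blue) in the library labelled depleted (y axis), in quintiles of 891 genes of cluster 0 by the longest annotated transcript (x axis, bases). The higher share climbs from 15.6% to 75.3% and the lower share declines from 39.7% to 7.3%.

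By position, genes of chromosome 1 had the largest percent of higher genes, with 38 of 53 (71.7%) higher and 6 lower, followed by chromosome 16 with 18 of 26 (69.2%). On the other autosomes and the X chromosome 36.7% to 54.3% of listed genes were higher.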

How the data were processed

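Interstitial cells of 2 libraries, 1 per genotype, were compared. The authors used Cell Ranger 6.1.1 with GRCm39 plus reporter sequences and merged the libraries with no scaling to equal depth. They then normalized counts in Seurat with SCTransform, with the mitochondrial fraction regressed out, and clustered the cells. Within each cluster they compared the cells of both libraries. They deposited 18 cluster tables, limited to genes that 25% or more of the cells of one library held and to a log2 fold change of at least 0.25 per their code, and 4 fibroblast subcluster tables of 15059 genes without limits. Of each gene the deposited tables hold the fraction of cells with a corrected value above 0 in either library, which is the unit used here, printed as a percent. The tables also hold the authors' log2 fold changes and p-values, which were not used. The smallest larger share was 25% in the cluster 0 table, and the limit on fold change was not checked. Doublet removal is not given in the sources used here, and free RNA can place a transcript in a cell that does not make it. Fibroblast shares are given as background for this reason, from tables normalized separately.

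The difference of shares (library labelled depleted minus control, percentage points) was computed per gene with Python 3.11.15 and pandas 2.3.3, and 10 points counted as a difference. With 1 library per group no test was made. Named genes were, by rule, the 15 largest differences in each direction, up to 4 members of each list, the 10 largest in each direction among genes listed in cluster 0 alone, genes listed in at least 12 other tables and past 10 points, the targeted genes, up to 10 genes with an opposite difference of at least 20 points in another table, and macrophage markers. Members and lists were chosen with earlier results of these data known. Lists added after the values were seen covered BMP and TGF-β response, amino acid exchange, mitochondrial ribosome and proteasome genes. Of 6 listed proteasome genes 2 were higher and 3 lower. No mitochondrially encoded gene, 1 of 16 vacuolar ATPase genes (Atp6v0e, 99.5% and 96.2%) and no gene of the targeted locus was listed. Positions and lengths came from GENCODE M39 (GRCm39), by exact symbol. Positions matched 889 genes. Promoters came from RefSeq (GRCm38.p6). The calculation was tested on simulated tables. Alternatives were other limits, a log2 ratio, centring, and filters on listed genes and clusters.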

Additional observations from a re-analysis of the deposited data

Results flagged for a closer look

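Among the genes at least 20 points apart in cluster 0, 40 were at least 20 points apart in the opposite direction in another cluster table, in 44 pairs of gene and table. The 10 of these named by rule are given here, and the difference between clusters was not tested in any of them, since each cluster holds 1 library per group. Shares in some of these tables were coarse, and a coarse share can move far with few cells. They took 21 (control) and 12 (labelled depleted) distinct values over the 1914 genes of cluster 17, 12 and 18 over the 1426 of cluster 18, and 18 and 12 in the control library of clusters 9 and 10, against 435 and 410 over the 923 genes of cluster 0. Epsti1, an interferon-inducible gene, differed by 34.4 points in cluster 0 (26.2% of control cells and 60.6% of cells labelled depleted) and by -33.0 points in cluster 9 (64.7% and 31.7%). Agtrap, which binds the angiotensin receptor, differed by 24.7 points in cluster 0 and -45.4 points in cluster 9. Zbp1, a sensor of left-handed nucleic acids, differed by 23.5 points and by -32.7 points in cluster 17. Id3 differed by -39.2 points in cluster 0 and by 27.5 points in cluster 10. Pttg1 (securin) differed by 25.9 points in cluster 0 and -39.9 points in cluster 10. In cluster 17 Rassf2 differed by -35.0 points and Mfsd5 by -40.0 points, against 27.7 and 21.7 points in cluster 0, and neither was detected in cells labelled depleted of cluster 17 (0.0%). Ifi27 differed by -27.0 points in cluster 0 and 34.7 points in cluster 18. Cluster 13, like cluster 0 assigned to macrophages and monocytes, had Adam8 at 28.2 points, against -29.9 points in cluster 0, and the transcription factor Pou2f2 at -33.6 points, against 24.8 points.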

How the results depend on the processing

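The count of higher genes (442 at 10 points) was 131 at 20 points, 248 by a log2 ratio of shares of at least 0.5, and 151 after centring on the median of listed genes. The count of lower genes (184) was 53, 74 and 282 under the same alternatives. A limit of 5 points gave 512 higher and 231 lower, and genes that 50% or more of the cells of one library held 318 and 146. Genes listed in cluster 0 alone (104) were 377 when compared with clusters 3, 11, 12 and 13 only, 239 when a row elsewhere counted only with a difference of at least 10 points, and 150 without clusters 15 and 17. The median difference of 9.3 points was 12.2 without genes at 95% or more in both libraries and 10.45 without ribosomal protein genes and pseudogenes. Of 23 gene lists with 3 or more listed members, 10 had a positive and 11 a negative median, and after centring 6 and 17, so that 4 turned from above 0 to below 0. No paired analysis was possible because there was 1 library per genotype. Depth and cell numbers are not given in the files, so no interval could be set on any share, and a gene at 0.0% is only one that was not detected.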
